A study of Mus musculus with 2 samples.

Results

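The genes described here are 7 negative regulators of NF-kB, chosen by their symbols among the 31053 genes counted in both libraries: the inhibitors Nfkbia, Nfkbib and Nfkbie, the nuclear inhibitors Nfkbid and Nfkbiz, and the ubiquitin-directed regulators Tnfaip3 and Tnip1. All 7 were detected at 10 CPM (counts per 1000000 UMIs) or more in at least 1 library. The RNA came from single cells of macrophage cultures started from the marrow of 129Sv mice and grown with 10% fetal bovine serum and 50 ng/ml M-CSF, the growth factor that turns marrow cells into macrophages. On day 7 the cells were given, for 18 h, either 1 µg/ml of a truncated Tamm-Horsfall protein (THP, also called uromodulin) that does not polymerize, or vehicle, which was 5% dextrose. There was 1 droplet library for each, so no difference below has a replicate check and no p-value was computed. The labels do not give the number of mice or dishes, nor the age of the mice, and treatment cannot be told apart from library preparation or culture. The sources used here do not state the endotoxin content of the protein preparation, so the protein and anything carried with it cannot be told apart either.

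NF-kB proteins are transcription factors that classical inhibitors hold in the cytoplasm. Signals from Toll-like receptors and cytokine receptors activate a kinase complex that marks these inhibitors for destruction. The freed dimers enter the nucleus and, among many inflammatory genes, transcribe several of their own inhibitors, which in macrophages ends or tunes the response. Nuclear inhibitors act on the dimers already bound to DNA, while the protein A20, encoded by Tnfaip3, and its partner ABIN1, encoded by Tnip1, act on the ubiquitin chains that carry the signal to the kinases.

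The THP library held 12123 cells after filtering, with 224825484 UMIs (unique molecular identifiers, each standing for 1 captured RNA molecule) and a median of 16113 UMIs per cell. The vehicle library held 10978 cells, with 207662132 UMIs and a median of 17223. The median mitochondrial share was 2.92% and 3.22%, and 38 cell barcodes occurred in both libraries among kept cells. The cultures were not pure macrophages. Gates on summed marker genes placed 50.1% of THP cells and 37.8% of vehicle cells (exact binomial 95% intervals 49.2% to 51.0% and 36.9% to 38.7%) in macrophages. Monocytes, MHC class II high cells, myeloid progenitors and immature and mature neutrophils made up most of the rest. Intervals on levels are exact Poisson 95% intervals. All intervals cover counting error only, not variation between cultures.

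Windows that begin 250 bases before the RefSeq start sites (GRCm38.p6) of these genes were searched on both strands for the NF-kB decamer consensus. Whether matches bear on the difference between the libraries was not tested. RefSeq windows of 300 bases, which run 50 bases past the start, were available for 6 of the 7 genes, all but Nfkbiz, and 5 of those 6 held a match in at least 1 window. Counted the same way, 2581 of all 27025 genes (9.55%) held one. By window the share was 8.46%, and 1.22% of windows held 2 or more. The sequences below are the 250 bases before the start and run 5′ to 3′ on the strand of the gene, with matches in capitals. They are chr12:55492648-55492897 on the minus strand, chr7:28766645-28766894 on the minus strand, chr17:45555450-45555699 on the plus strand, chr7:30422156-30422405 on the plus strand, chr10:19015411-19015660 on the minus strand and chr11:54962941-54963190 on the minus strand. Nfkbib is shown as the gene with no match.
Nfkbia: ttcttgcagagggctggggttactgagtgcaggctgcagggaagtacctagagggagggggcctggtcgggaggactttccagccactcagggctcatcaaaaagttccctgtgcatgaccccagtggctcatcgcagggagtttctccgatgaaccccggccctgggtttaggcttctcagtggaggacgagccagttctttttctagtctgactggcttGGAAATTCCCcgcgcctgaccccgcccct
Nfkbib: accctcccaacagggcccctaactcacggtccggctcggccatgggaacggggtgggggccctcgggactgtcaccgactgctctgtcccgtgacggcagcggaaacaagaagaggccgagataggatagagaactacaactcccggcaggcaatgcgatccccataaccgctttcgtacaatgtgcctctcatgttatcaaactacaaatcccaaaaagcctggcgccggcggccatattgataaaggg
Nfkbie: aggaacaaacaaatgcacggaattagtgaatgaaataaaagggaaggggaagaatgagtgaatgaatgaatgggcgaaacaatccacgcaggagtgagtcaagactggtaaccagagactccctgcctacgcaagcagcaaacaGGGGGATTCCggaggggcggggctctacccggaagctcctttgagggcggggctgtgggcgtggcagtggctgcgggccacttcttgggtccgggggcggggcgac
Nfkbid: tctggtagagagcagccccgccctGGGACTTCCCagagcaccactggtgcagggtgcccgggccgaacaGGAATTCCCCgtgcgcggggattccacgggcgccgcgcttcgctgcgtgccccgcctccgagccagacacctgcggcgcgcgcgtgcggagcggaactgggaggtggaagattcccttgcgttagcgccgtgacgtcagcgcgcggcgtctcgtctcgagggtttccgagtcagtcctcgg
Tnfaip3: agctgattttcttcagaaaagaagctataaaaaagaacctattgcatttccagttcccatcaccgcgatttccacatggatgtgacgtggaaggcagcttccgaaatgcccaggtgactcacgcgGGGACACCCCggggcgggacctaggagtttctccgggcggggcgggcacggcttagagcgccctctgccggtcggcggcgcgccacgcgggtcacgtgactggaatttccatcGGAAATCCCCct
Tnip1: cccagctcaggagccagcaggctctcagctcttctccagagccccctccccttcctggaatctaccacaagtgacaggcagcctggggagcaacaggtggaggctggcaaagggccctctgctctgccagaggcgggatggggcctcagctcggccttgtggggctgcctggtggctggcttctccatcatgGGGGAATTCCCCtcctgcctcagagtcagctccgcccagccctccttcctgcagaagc
The match of Nfkbia began 29 bases before the start and that of Nfkbie 106 bases before it. Nfkbid had 2 matches in 1 of its 3 windows, the one shown, and Tnfaip3 had 2 in 1 of its 2 windows. The 3 matches of Tnip1 overlapped one another within the single run in capitals. Such a match is a run of letters, not a measured binding site. It was present in Nfkbid, whose level differed little between the libraries, and absent from these windows of Nfkbib.

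Over all kept cells, 5 of the 7 regulators were at least 2-fold higher in the THP library on the log2(CPM + 1) scale, and 0 were lower by that size. Across all 8012 genes with 10 CPM or more in either library, 0.911% were higher by this rule and 2.97% were lower. The 5 genes were Nfkbiz, Nfkbia, Tnip1, Nfkbie and Tnfaip3. The median log2 ratio of the 7 was 1.34, beside -0.18 for all 8012 genes. All 7 ratios were above 0, as were 32.4% of all ratios. With TMM scaling, a way of setting library totals that discounts the most changed genes, the median of all genes moved up by 0.29 to 0.11, and the calls over all genes changed from 73 higher and 238 lower to 138 higher and 69 lower. The count of regulators became 6 of 7 under that scaling, where 1.73% of genes were higher. At a limit of 1.5-fold it was also 6, beside 2.33% of all genes. In the barcodes that the cell filter left out, 5 of the 7 were higher with THP by intervals that did not overlap, beside 9.70% of genes there.

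**Figure D1:**
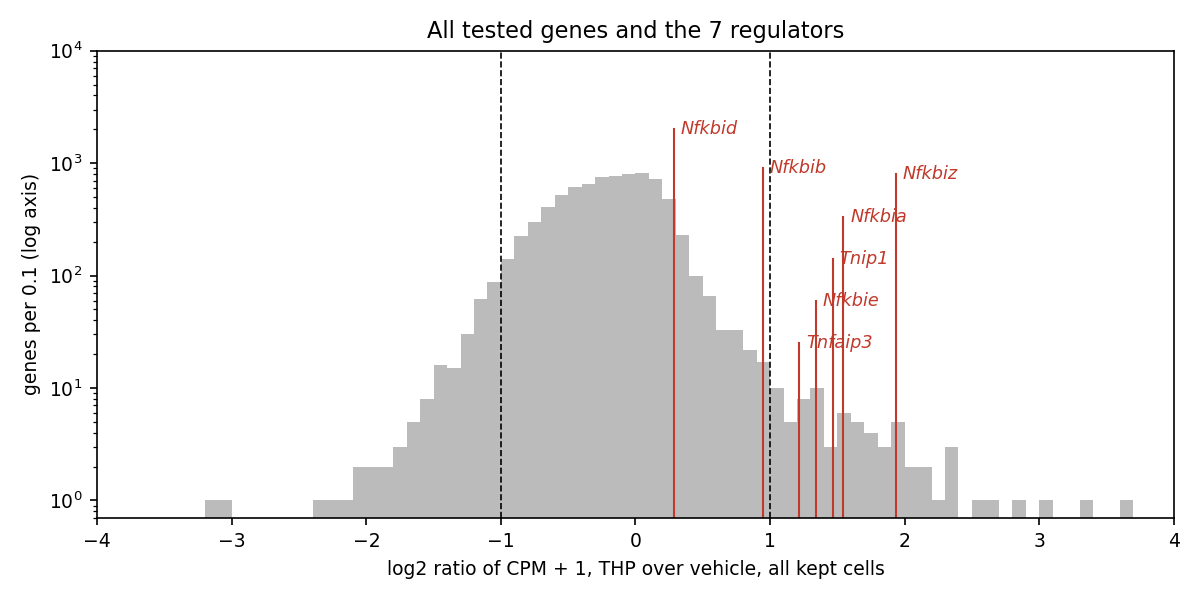
Distribution of the log2 ratio of CPM + 1, THP over vehicle, for the 8012 tested genes (grey bars, log axis), with each of the 7 regulators as a red line of arbitrary height. Dashed lines mark 2-fold. Nfkbid, at 0.28, lies well short of 2-fold, though above 92.1% of the tested genes. Nfkbib at 0.95 lies just under the limit, and the other 5 lie beyond it, between 1.22 and 1.94.

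Among the classical inhibitors, Nfkbia had the highest level and the largest ratio. It encodes IkBa, the inhibitor that is destroyed and remade fastest in NF-kB signalling. The gene (ENSMUSG00000021025, GRCm38) lies on the minus strand of chromosome 12, from 55489410 to 55492647. Nfkbia was at 337 CPM in the THP library (interval 335.0 to 339.8) and at 115 CPM in the vehicle library (interval 113 to 116). The log2 ratio was 1.55, and 32 of the 8012 tested genes had a higher one. A UMI of Nfkbia was found in 89.3% of THP cells and 68.3% of vehicle cells. After every cell was thinned to 2000 UMIs, which leaves out 670 THP and 724 vehicle cells with fewer, the shares were 47.9% (47.0% to 48.8%) and 21.2% (20.4% to 22.0%).

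Nfkbie encodes IkBe, an inhibitor that prefers dimers with Rel or Rela. The gene (ENSMUSG00000023947) lies on the plus strand of chromosome 17, from 45555703 to 45563169. Nfkbie was at 29.97 CPM in the THP library (interval 29.3 to 30.7) and at 11.2 CPM in the vehicle library (interval 10.8 to 11.7), which gave a log2 ratio of 1.34. Its thinned share of cells was 6.09% against 2.49%. Nfkbib encodes IkBb, a slower-turning inhibitor. The gene (ENSMUSG00000030595) lies on the minus strand of chromosome 7, from 28758251 to 28767512. Nfkbib was at 47.3 CPM in the THP library (interval 46.4 to 48.2) and at 24.0 CPM in the vehicle library (interval 23.4 to 24.7). Its log2 ratio of 0.95 fell short of the 2-fold limit, although only 83 genes had a higher ratio, and the counting interval of its CPM ratio ran from 1.90 to 2.04. TMM scaling put it past the limit, at 1.23, and so did giving every cell equal weight, at 1.00. The thinned share of cells with Nfkbib was 9.15% against 4.71%.

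The 2 nuclear inhibitors differed most from each other. Nfkbiz encodes IkBz, which is needed for a set of late inflammatory genes. The gene (ENSMUSG00000035356) lies on the minus strand of chromosome 16, from 55811375 to 55838899. Nfkbiz was at 46.8 CPM in the THP library (interval 45.9 to 47.7) and at 11.5 CPM in the vehicle library (interval 11.0 to 11.96). Its log2 ratio, 1.94, was the highest of the 7, and 16 genes exceeded it. The value depended on how cells were weighted. With equal weight per cell in place of summed UMIs it was 0.9955, just under the limit. The mature neutrophils, cells of few UMIs but a high Nfkbiz level, made up 7.31% of vehicle cells and 4.22% of THP cells. The macrophage gates supplied 81.1% of its UMIs with THP and 52.5% with vehicle, and the neutrophil gates 4.47% and 19.4%.

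Nfkbid encodes IkBNS, the other nuclear inhibitor, known for its part in restraining late cytokine genes. The gene (ENSMUSG00000036931) lies on the plus strand of chromosome 7, from 30421732 to 30428746. Nfkbid was at 13.5 CPM in the THP library (interval 13.01 to 14.0) and at 10.9 CPM in the vehicle library (interval 10.5 to 11.4), which gave a log2 ratio of 0.28. The CPM ratio had a counting interval of 1.17 to 1.31, so it was higher by less than 1.5-fold, and 628 genes had a higher ratio. Its thinned share of cells was 2.79% (2.50% to 3.11%) and 2.36% (2.07% to 2.67%), intervals that overlapped. For the other 6 they did not, beside 17.6% of all 8012 genes whose THP share was the higher one by that measure.

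Both ubiquitin-directed regulators were past the limit. The gene (ENSMUSG00000019850) lies on the minus strand of chromosome 10, from 19000910 to 19015657. Tnfaip3 was at 18.4 CPM in the THP library (interval 17.9 to 19.0) and at 7.35 CPM in the vehicle library (interval 6.98 to 7.73), which gave a log2 ratio of 1.22. The gene (ENSMUSG00000020400) lies on the minus strand of chromosome 11, from 54910785 to 54962917. Tnip1 was at 117 CPM in the THP library (interval 116 to 118) and at 41.7 CPM in the vehicle library (interval 40.8 to 42.6), which gave a log2 ratio of 1.47. A UMI of Tnip1 was found in 20.3% of thinned THP cells and 7.28% of thinned vehicle cells, and one of Tnfaip3 in 4.06% and 1.71%.

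A UMI is counted once per molecule whatever its length, so the order of levels is given with and without a division by length. In CPM, Nfkbid was last with THP and Tnfaip3 with vehicle, and Nfkbib and Nfkbiz lay close together with THP, at 47.3 and 46.8 CPM. Divided by the length of the longest annotated transcript, Nfkbia, Tnip1 and Nfkbib held the first 3 places in both libraries. In CPM per kilobase their THP levels were 214, 39.3 and 23.0 and their vehicle levels 72.8, 14.0 and 11.7. Tnfaip3 was last in both, at 2.97 and 1.19 CPM per kilobase. Nfkbiz took place 4 in the THP library, at 11.4, and place 6 in the vehicle library, at 2.79, below Nfkbid at 5.34 and Nfkbie at 3.73.

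The same 7 genes were then compared within gated cell types. Each gate summed the CPM of a marker list per cell, and its limits were set after the distributions of these sums were seen. Of 12 types, 7 had at least 200 cells in each library. They were C1q-high macrophages (3707 THP and 1969 vehicle cells), C1q-low macrophages (2367 and 2182), monocytes (1653 and 1937), MHC class II high antigen-presenting cells (707 and 679), myeloid progenitors (909 and 1187), immature neutrophils (1099 and 1428) and mature neutrophils (511 and 802). The leading genes of 6 gates by fold included their own markers. The monocyte gate was led by Vcan, Itga1 and F13a1, with the immunoglobulin genes Igkc and Ighm also among the first 10. The C1q-low macrophage gate rested on Adgre1 and the other macrophage markers but was led by Itgax, Npy, Rnf128, Mmp12 and Gpnmb, none of them on its list. Cells within a factor of 1.2 of the macrophage gate limit made up 8.37% of the C1q-low gate with THP and 5.36% with vehicle. Cells close to the C1q limit that divides the 2 macrophage gates were not counted. Mature neutrophils had a median of only 2218 and 1981 UMIs. Marker sums also differed between the libraries within a gate. The median macrophage sum was 1912 CPM with THP and 2861 CPM with vehicle in C1q-high macrophages. In C1q-low macrophages it was 1350 and 1716 CPM. The median sum of the C1q-high list in C1q-high macrophages was closer, at 4133 and 4030 CPM. Whether cells under the same gate name were alike in the 2 libraries was not tested.

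In these 7 types the regulators gave 49 pairs of levels. The THP level was the higher one in 49 of 49 pairs, by at least 2-fold in 32 and lower by that size in 0. Of all tested genes, between 26.6% (mature neutrophils) and 34.4% (C1q-low macrophages) had the higher level with THP. By type, the number of regulators past the limit was 4 of 7 in C1q-high macrophages, where 1.02% of all tested genes were higher by this rule (3.18% lower), and 5 in C1q-low macrophages (1.05% higher, 2.28% lower). It was 5 in monocytes (0.771% higher, 2.60% lower), 5 in MHC class II high cells (1.08% higher, 4.75% lower) and 4 in myeloid progenitors (1.39% higher, 2.26% lower). In immature neutrophils it was 5 (1.95% higher, 5.27% lower) and in mature neutrophils 4 (2.90% higher, 18.2% lower). The median log2 ratio of the regulators ran from 1.05 in MHC class II high cells to 1.68 in immature neutrophils, and that of all tested genes from -0.40 in mature neutrophils to -0.15 in C1q-low macrophages.

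**Figure D2:**
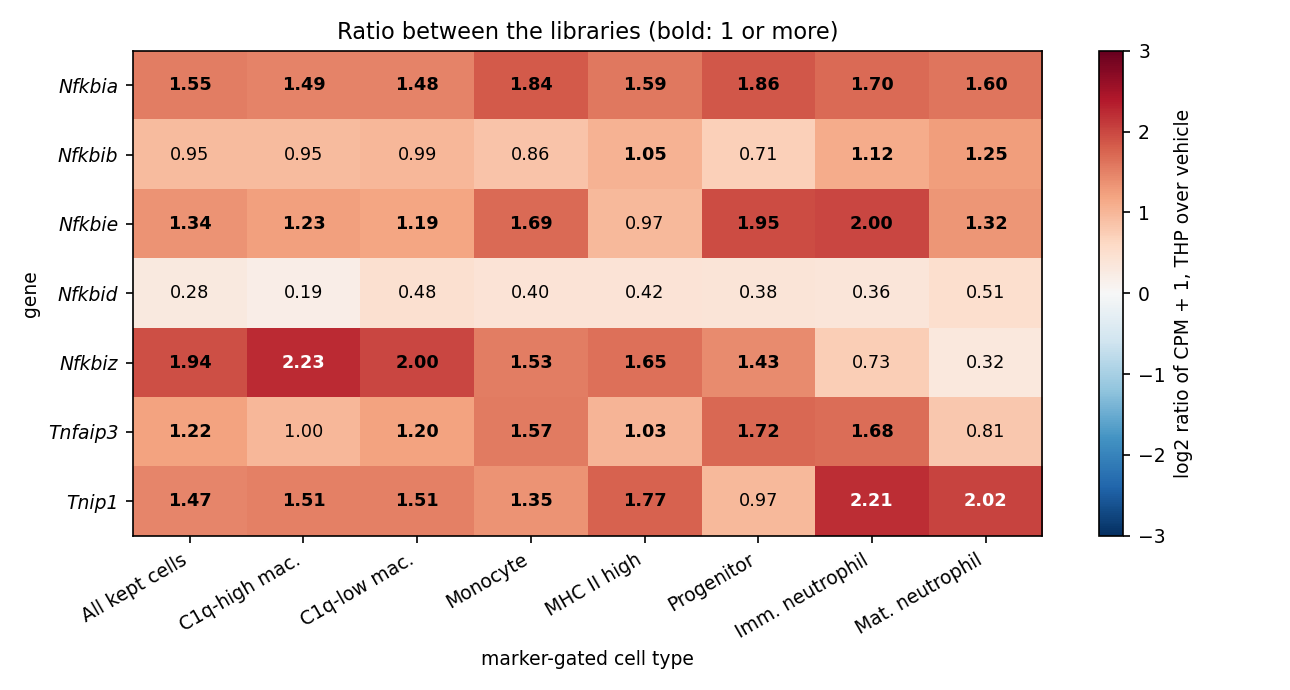
Log2 ratio of CPM + 1, THP over vehicle, for each regulator (rows) over all kept cells and in 7 gated cell types (columns), with values of 1 or more in bold. Nfkbia is bold throughout and Nfkbid nowhere, while Nfkbiz is highest in C1q-high macrophages, at 2.23, and lowest in mature neutrophils, at 0.32. The value of Tnfaip3 in C1q-high macrophages rounds to 1.00 from below.

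Nfkbia passed the limit in 7 of 7 types, and its ratio varied least among the 5 genes past it over all cells, from 1.48 in C1q-low macrophages to 1.86 in myeloid progenitors. Its levels spanned 3.20-fold over the types with THP and 3.48-fold with vehicle. Mature neutrophils had 996 CPM (944 to 1051) with THP and 327 CPM (303 to 353) with vehicle. Immature neutrophils followed with 660.4 and 203 CPM. The other types lay between 311 and 373 CPM in the THP library and between 93.9 and 112 CPM in the vehicle library, where the 2 macrophage gates and the MHC class II high gate had overlapping intervals.

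Nfkbiz also had its highest level in mature neutrophils, but its ratio there was the smallest and that of macrophages the largest. Its levels spanned 11.8-fold over the types with THP and 29.5-fold with vehicle. C1q-high macrophages stood at 65.3 CPM (63.7 to 67.0) against 13.1 CPM (12.1 to 14.2), and the CPM ratio had a counting interval of 4.595 to 5.40. C1q-low macrophages stood at 42.7 CPM (40.9 to 44.4) against 9.93 CPM (9.14 to 10.8), for a log2 ratio of 2.00. Mature neutrophils stood at 148 CPM (128 to 170) against 119 CPM (104 to 135), with a counting interval of 1.03 to 1.51 on the CPM ratio. The intervals of these ratios did not overlap between C1q-high macrophages and mature neutrophils, and whether the gap exceeds variation between cultures was not tested. Immature neutrophils lay between them, with 35.0 CPM (30.9 to 39.5) against 20.7 CPM (18.1 to 23.6), for a log2 ratio of 0.73. Monocytes had 23.1 against 7.33 CPM, and MHC class II high cells 36.7 against 11.0 CPM.

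The lowest Nfkbiz level was in myeloid progenitors, at 12.5 CPM (10.9 to 14.3) with THP and 4.03 CPM (3.29 to 4.87) with vehicle. Free RNA in the droplets bears on this value. The 3 C1q genes, which progenitors should lack, stood in the progenitor gate at 11.8% of their macrophage level in the THP library and at 4.25% in the vehicle library. At those shares, macrophage RNA would account for 6.73 CPM of Nfkbiz in THP progenitors and 0.485 CPM in vehicle progenitors. Less these amounts, Nfkbiz stood at 5.79 against 3.54 CPM in progenitors, a log2 ratio of 0.58, under 10 CPM in both and so no longer past the limit. In immature and mature neutrophils the C1q shares were 6.96% and 8.43% in the THP library and 3.69% and 3.63% with vehicle. There the same calculation gave 3.97 and 4.81 CPM of Nfkbiz for the THP library, small beside the measured 35.0 and 148 CPM. For Nfkbia it gave at most 36.9 CPM in these 3 types, beside measured THP levels of 373 CPM or more. In MHC class II high cells, which may make C1q themselves, the shares were 11.4% and 8.49%, and Tnfaip3 there moved from 1.03 to 0.97. Over the 7 types, 30 pairs in place of 32 were past the limit after this subtraction, the 2 lost being these, and 49 of 49 ratios were still above 0.

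**Figure D3:**
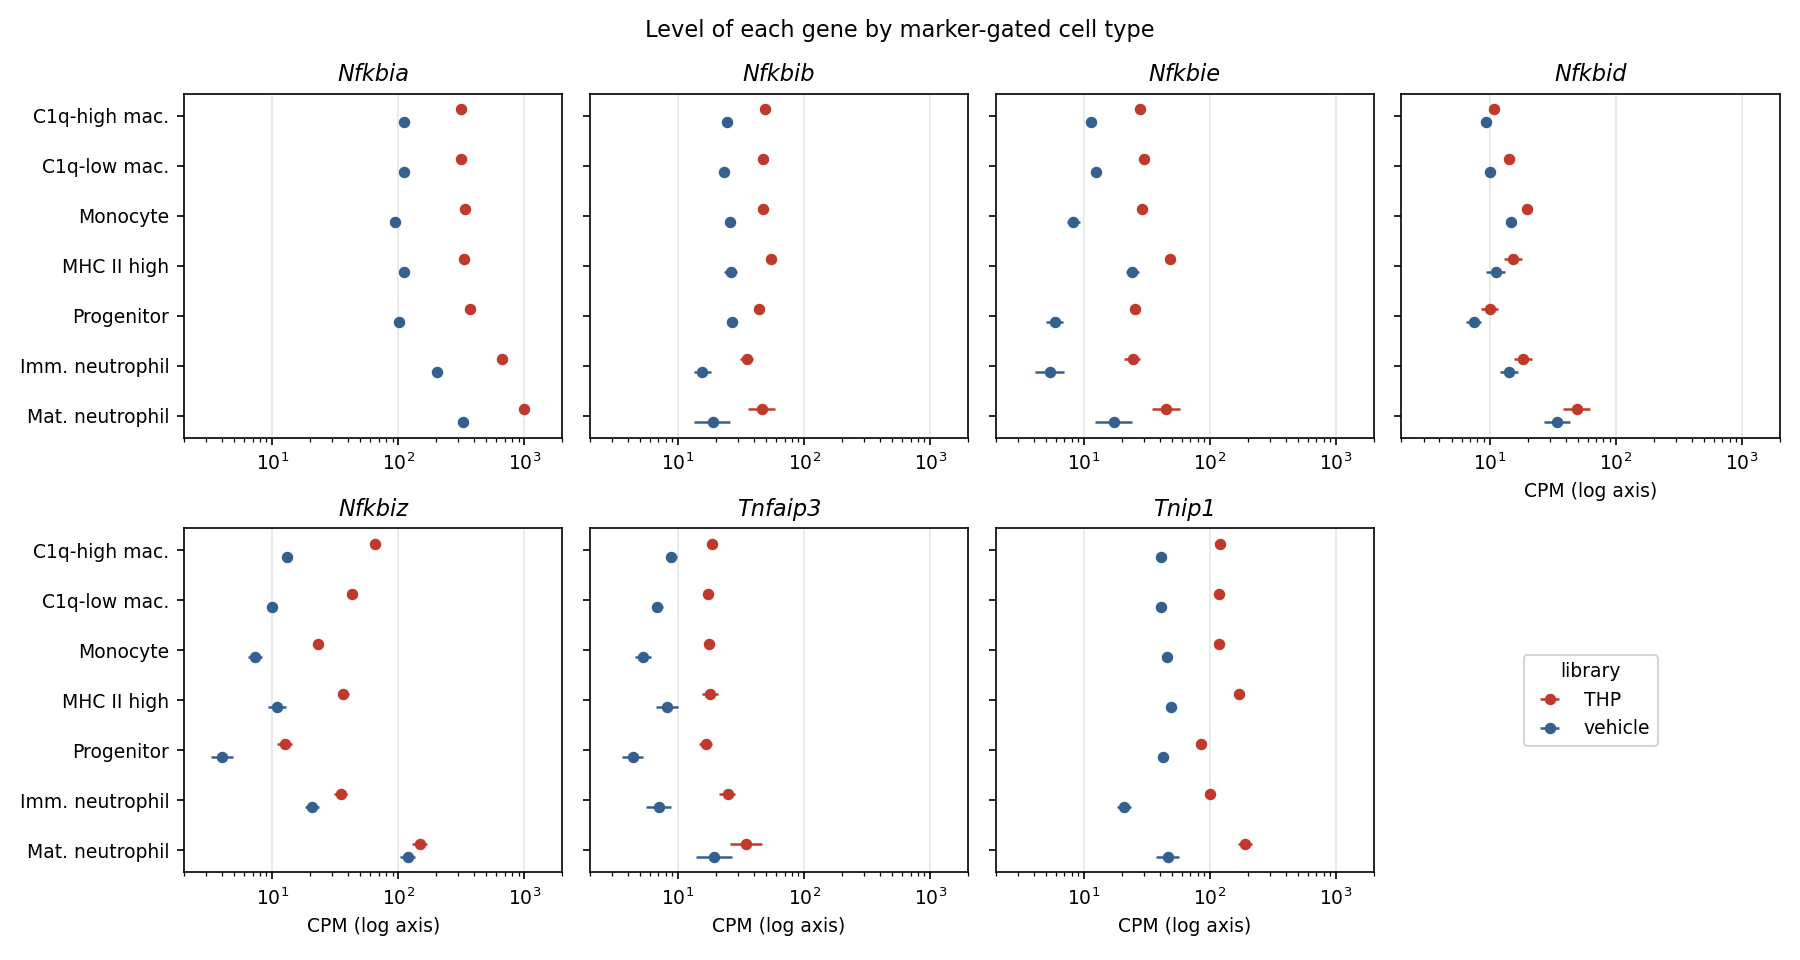
CPM of each regulator (log axis) in 7 gated cell types, THP library in red and vehicle library in blue, with exact Poisson 95% intervals that cover counting error only. In every panel the red point lies to the right of the blue one, and for Nfkbia, Nfkbid, Nfkbiz and Tnfaip3 the mature neutrophils are the highest type in both libraries.

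Among the 7 types, Nfkbie had its highest level in MHC class II high cells, at 48.5 CPM (44.3 to 52.9) with THP and 24.3 CPM (21.6 to 27.2) with vehicle. Mature neutrophils came next with intervals that overlapped these, at 45.0 CPM (34.5 to 57.7) and 17.5 CPM (12.2 to 24.3). MHC class II high cells also had its smallest ratio, 0.97. Its largest ratio, 2.00, came from immature neutrophils, where the vehicle level was 5.35 CPM (4.06 to 6.92) and the THP level 24.3 CPM (20.96 to 28.1). The vehicle levels of Nfkbie spanned 4.53-fold over the 7 types and the THP levels 1.99-fold. The lowest THP level, in immature neutrophils, and the highest vehicle level, in MHC class II high cells, had overlapping intervals. The smallest Nfkbie ratio was 1.18 with TMM scaling within each type, past the limit.

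Nfkbib varied little over the types, by 1.57-fold among THP levels and 1.704-fold among vehicle levels. All 7 THP levels, from 35.1 CPM in immature neutrophils to 55.1 CPM in MHC class II high cells, were above all 7 vehicle levels, the highest of which was 26.6 CPM in myeloid progenitors. Its ratio passed the limit in 3 types: MHC class II high cells at 1.05, immature neutrophils at 1.12 and mature neutrophils at 1.25. Its ratio in the C1q-low gate was 0.99, and its lowest was 0.71, in myeloid progenitors.

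Nfkbid passed the limit in 0 of 7 types, with log2 ratios from 0.19 in C1q-high macrophages to 0.51 in mature neutrophils. Cell type made a larger difference than library. Mature neutrophils stood at 49.3 CPM (38.3 to 62.6) against 34.4 CPM (26.8 to 43.5), while C1q-high macrophages stood at 10.8 CPM (10.2 to 11.5) against 9.36 CPM (8.54 to 10.2). Monocytes came next to mature neutrophils in both libraries, with 19.7 and 14.7 CPM.

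Tnip1 passed the limit in 6 of 7 types. Its largest ratio was 2.21 in immature neutrophils, with 100.1 CPM (93.1 to 107) against 20.9 CPM (18.2 to 23.8). Mature neutrophils followed at 2.02, with 191 CPM (169 to 215) against 46.4 CPM (37.4 to 56.8), and then MHC class II high cells at 1.77, with 170 CPM against 49.2 CPM. The smallest ratio, 0.97, was in myeloid progenitors, with 84.7 CPM against 42.8 CPM. The lowest THP level thus stood above the highest vehicle level, 49.2 CPM. The Tnip1 vehicle level of immature neutrophils lay below those of the 6 other types by more than the counting intervals. For Nfkbie it was the lowest too, but overlapped that of myeloid progenitors, 5.87 CPM (4.97 to 6.87). The smallest Tnip1 ratio was 1.13 with TMM scaling within each type, past the limit.

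Tnfaip3 passed the limit in 5 of 7 types, with ratios from 0.81 in mature neutrophils to 1.72 in myeloid progenitors. In progenitors the levels were 16.6 CPM (14.8 to 18.7) against 4.37 CPM (3.61 to 5.25), and macrophage RNA at the C1q share would account for 2.14 and 0.331 CPM of them. In mature neutrophils they were 34.8 CPM (25.7 to 46.2) against 19.4 CPM (13.8 to 26.6), from 48 and 39 UMIs, and the intervals overlapped. C1q-high macrophages had 18.7 against 8.87 CPM, a log2 ratio of 0.998. The THP levels of the 5 types other than neutrophils lay between 16.6 and 18.7 CPM. With TMM scaling within each type, the smallest Tnfaip3 ratio was 1.18, so the types under the limit depended on the scaling.

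How many of the 7 genes a cell showed was counted after thinning to 2000 UMIs. The mean was 0.988 genes per cell with THP and 0.429 with vehicle. None of the 7 was seen in 32.0% of THP cells and 64.1% of vehicle cells. At least 3 were seen in 5.24% (4.84% to 5.66%) and 0.566% (0.430% to 0.731%). Mature neutrophils had the highest share with 3 or more, at 16.0% among 326 THP cells (12.1% to 20.4%) and 2.29% among 393 vehicle cells (1.05% to 4.30%). Thinning left out 185 and 409 mature neutrophils, so these shares describe their deeper cells. Myeloid progenitors had the lowest, at 2.66% and 0.169%.

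**Figure D4:**
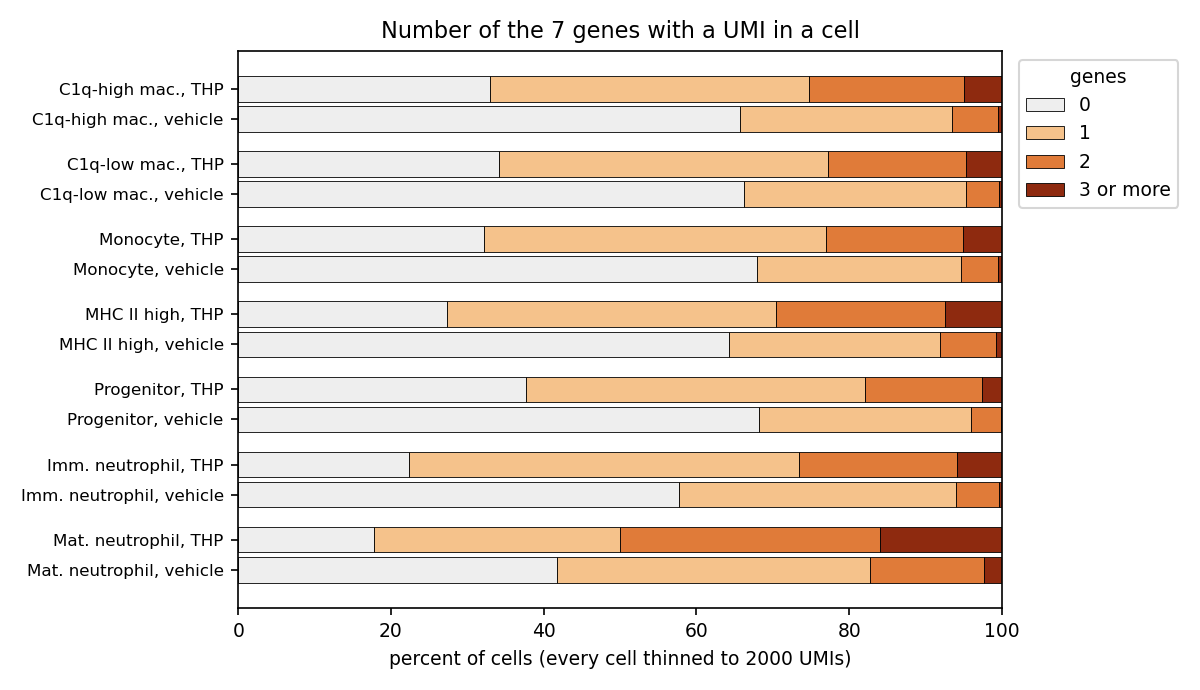
Share of cells, thinned to 2000 UMIs each, in which 0, 1, 2 or at least 3 of the 7 regulators had a UMI, by gated cell type and library. In each type the pale bar of cells with 0 is shorter in the THP library, for example 33.0% against 65.7% in C1q-high macrophages.

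Macrophages were next divided by whether they carried a UMI of Tnf, the cytokine gene and classic NF-kB target, within their 2000 UMIs. This split was chosen with results of these data known, and a cell without such a UMI may still express Tnf. In the THP library 1349 of 5993 macrophages (22.5%) had one and in the vehicle library 202 of 4115 (4.91%). Full depth was alike in the THP cells with and without it, with medians of 21070 and 20965.5 UMIs. Both macrophage gates were pooled, though Nfkbiz with THP was at 65.3 CPM in the C1q-high and 42.7 CPM in the C1q-low gate. The part of this difference in the values below was not tested. In THP macrophages, cells with Tnf had more Nfkbiz, at 85.2 CPM (74.6 to 97.01) against 53.0 CPM (48.4 to 57.9). They also had more Nfkbia, at 393 CPM (370 to 418) against 297 CPM (286 to 309), and more Tnfaip3, at 28.5 CPM (22.5 to 35.7) against 18.9 CPM (16.3 to 22.0). The intervals of these 3 did not overlap, as was so, with the higher level in cells with Tnf, for 2.15% of all tested genes. For the other 4 the intervals overlapped: Tnip1 had 120 against 123 CPM, Nfkbib 48.6 against 49.6 CPM, Nfkbie 29.3 against 28.7 CPM and Nfkbid 14.8 against 11.0 CPM. None of the 7 reached 2-fold between these THP cells, while 0.0923% of all tested genes did.

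In vehicle macrophages the intervals of 2 regulators did not overlap, beside 1.53% of all tested genes. Nfkbiz had 39.6 CPM (22.6 to 64.3) in cells with Tnf and 12.1 CPM (9.82 to 14.8) in cells without, and Nfkbia 198 CPM (157 to 246) against 112 CPM (105 to 119). Nfkbiz and Tnfaip3 exceeded 2-fold there, 2 of 7 beside 1.89% of all tested genes. The Tnfaip3 value rested on 7 UMIs and its interval, 6.97 to 35.7 CPM, overlapped that of cells without Tnf, 6.07 to 10.2 CPM. THP macrophages without a Tnf UMI had more Nfkbia than vehicle macrophages with one, at 297 against 198 CPM. They also had more Tnip1, at 123 CPM (116 to 130.2) against 37.1 CPM (20.8 to 61.2). For Nfkbiz, Tnfaip3, Nfkbib, Nfkbie and Nfkbid the intervals of these groups of cells overlapped. Nfkbid was the lower one in the THP cells, at 11.0 against 14.9 CPM. The share over all genes was not computed for this comparison.

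**Figure D5:**
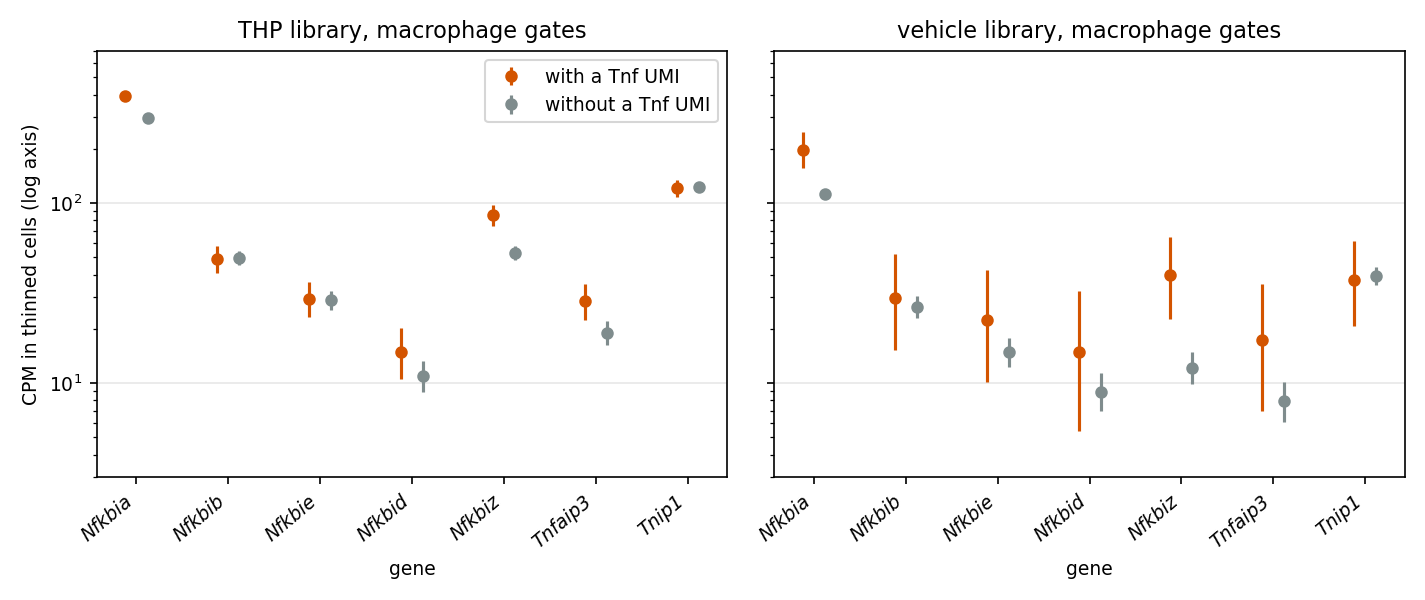
CPM of each regulator (log axis) in macrophages with (orange) and without (grey) a Tnf UMI among 2000 UMIs per cell, THP library on the left and vehicle library on the right, with exact Poisson 95% intervals. In the THP library the orange and grey intervals separate for Nfkbia, Nfkbiz and Tnfaip3 and overlap for the other 4.

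Levels of the 7 genes were correlated over the 14 combinations of gated type and library, on the log2(CPM + 1) scale. These points share libraries and some share free RNA, so the coefficients are descriptions. The closest pairs among the 7 were Nfkbib with Tnip1 (Pearson r = 0.95) and Nfkbia with Tnfaip3 (r = 0.94), and the least alike were Nfkbib and Nfkbid (r = 0.13). Among all 8012 genes, the 3 most like each were as follows. Nfkbia was closest to Casp4, Tnfaip3 and Ebi3 (r = 0.96 to 0.94), and Tnfaip3 to Bcl3 (r = 0.97), Pde4b and Nfkbia. Nfkbie was closest to Relb (r = 0.96), Nfkb2 and Tnip1, and Tnip1 to Nfkbib, Nfkb2 and Nfkbie. Nfkbib was closest to Tnip1, Ube2f and Ppp1r11. For Nfkbiz they were Zc3h12a (r = 0.97), Ccl3 and Rhog, and for Nfkbid Hcar2 (r = 0.96), Ifitm2 and Adprh.

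The rest of the pathway was read from lists by role, chosen with earlier results of these data known. Of all 8012 tested genes, 0.911% passed the limit higher and 2.97% lower. Of the 6 genes for NF-kB subunits and the related Bcl3, 3 passed the limit higher and 0 lower, with a median of 0.93. They were Nfkb2 (57.3 against 19.6 CPM, log2 ratio 1.502), Bcl3 (28.4 against 9.71 CPM, 1.46) and Relb (53.6 against 21.2 CPM, 1.30). Nfkb1, which encodes p105 and p50, had 124 against 84.1 CPM, a log2 ratio of 0.56. The next list held kinases upstream of the inhibitors, with the non-catalytic partners Ikbkg, Tab1, Tab2 and Tab3. Of its 11 genes 8 reached 10 CPM, and 1 passed the limit, Ikbke (114 against 50.5 CPM, 1.16). The median of the 8 was -0.25. Chuk, which encodes a catalytic subunit of the kinase complex, had 19.5 against 27.0 CPM.

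Of 14 adaptors and ubiquitin ligases, 2 passed the limit higher and 0 lower: Traf1 (44.9 against 8.56 CPM, 2.26) and Birc3 (47.8 against 22.7 CPM, 1.04), an adaptor and a ubiquitin ligase of TNF receptor complexes. Their median was -0.04. Ripk1, a scaffold of TNF receptor signalling, had 40.9 against 64.9 CPM. Other brakes of the pathway were read in the same way. Of 16 such genes 15 were tested, 1 passed the limit higher and 0 lower, with a median of 0.02. The one was Zc3h12a, which encodes an RNase that cuts inflammatory mRNAs, at 18.6 against 8.26 CPM (log2 ratio 1.08). Tnip3, a relative of Tnip1, had 382 against 205 CPM (0.89). Cyld, a deubiquitinase, had 31.1 against 55.3 CPM (-0.81), and Itch, a ligase partner of A20, 27.4 against 49.5 CPM (-0.83). With TMM scaling the medians of the kinase list, the adaptors and ligases, and the other brakes were 0.02, 0.23 and 0.30, beside the 0.11 of all genes. These lists then had 1, 2 and 3 genes past the limit. The signs of the first 2 medians therefore depended on the scaling.

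Of 14 NF-kB target genes 10 were tested, and 10 passed the limit higher, beside 0.911% of all tested genes. Their median was 2.38. The targets Il1a, Ptgs2, Il6 and Nos2 were under 10 CPM in both libraries and so not tested. Cxcl1, a neutrophil chemokine, had 54.3 against 5.50 CPM (log2 ratio 3.09), Ccl4 229 against 30.2 CPM (2.88), Il1b 67.3 against 9.58 CPM (2.69) and Tnf 117 against 18.9 CPM (2.56). Each of these ratios exceeded those of all 7 regulators. Of 6 late genes linked to Nfkbiz, 4 (Il6, Il12b, Csf2 and Csf3) were under 10 CPM in both libraries. Of the other 2, Lcn2 had 1085 against 1272 CPM (-0.23) and Ccl2 927 against 471 CPM (0.97). Lcn2 was among the leading genes of the immature neutrophil gate, which held 9.07% of THP and 13.01% of vehicle cells. Within the 7 gated types, the median log2 ratio of Lcn2 and Ccl2 ran from 0.36 in C1q-high macrophages to 1.46 in immature neutrophils. A median of 2 genes does not show the direction of Lcn2 alone. The part of cell mix in the Lcn2 value was not tested. Among genes of the immediate early and dissociation response, 12 of 14 were tested, 1 passed the limit higher (Ier3, 102 against 35.5 CPM) and 1 lower (Fosb, 5.47 against 13.6 CPM), with a median of 0.16. Junb had 156 against 87.5 CPM and Atf3 63.6 against 40.8 CPM. The part of cell detachment in the levels of the 7 genes was not tested.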

How the data were processed

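Each deposited matrix gives, for every gene and barcode, an unnormalized count of UMIs. Per the file headers the software version was 3.1.0 and the format version 2. The submitters' processing notes name Cell Ranger, bcl2fastq, STAR and the build mm10, with no role or order, while no source used here states the annotation release. Transcript lengths and coordinates came from GENCODE M21 (GRCm38), which had a length for 30934 of the 31053 identifiers.

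Barcodes with at least 500 genes, 1000 UMIs and at most 10% mitochondrial UMIs were kept, which left out 1070 THP barcodes (8.11%) and 606 vehicle barcodes (5.23%). Doublets were left in. UMIs were summed per library or gated type and scaled to CPM. The size rule required 10 CPM in at least 1 library and a 2-fold ratio of CPM + 1, which understates ratios of low genes. A cell was gated to the marker list whose summed CPM was largest relative to its limit, with at least 3 marker UMIs. Types with fewer than 200 cells in a library were not compared. Thinning used random seed 1. PCR copies are collapsed by the UMIs, and intervals cover counting error only.

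The members, lists and tests were chosen with earlier results of these data known. Up to 4 genes per list, those with the largest absolute ratio at 10 CPM or more, are named, and the 3 genes most correlated with each member. The calculation was tested on simulated data. The tools were Python 3.11.15, numpy 2.4.6, pandas 2.3.3, scipy 1.17.1, statsmodels 0.14.6, R 4.3.3, edgeR 4.0.16 (TMM and RLE factors only) and matplotlib 3.10.9. Alternatives were 2 scalings, a pseudocount of 0.1, no filter on low values, all deposited barcodes and the top 5% of cells left out. Others were equal weight per cell and the same mix of gated types in both libraries, set by mean UMI share. A length correction, a fold limit of 1.5 and other gate limits were also used. A subtraction of macrophage RNA estimated from the C1q genes was chosen after seeing the data.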

Additional observations from a re-analysis of the deposited data

Results flagged for a closer look

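Barcodes that the cell filter left out, 1070 with THP and 606 with vehicle, lie outside the comparisons of levels and cell types above. In them 5 of the 7 regulators were higher in the THP library with intervals that did not overlap those of the vehicle library, beside 9.70% of the 8267 genes at 10 CPM or more in these barcodes. Nfkbia had 386 CPM (361 to 412) in the THP library against 115 CPM (98.5 to 134) in the vehicle library. Tnip1 had 130 CPM (115 to 145) against 29.4 CPM (21.2 to 39.7), and Nfkbiz 69.0 CPM (58.7 to 80.6) against 19.6 CPM (13.01 to 28.3). Nfkbie had 39.5 CPM (31.8 to 48.5) against 14.0 CPM (8.54 to 21.6) and Tnfaip3 35.2 CPM (27.9 to 43.7) against 12.6 CPM (7.46 to 19.9). For Nfkbib, 29.95 CPM (23.3 to 37.9) stood against 16.8 CPM (10.8 to 24.97), and for Nfkbid 15.2 CPM (10.6 to 21.1) against 14.7 CPM (9.09 to 22.4), both with overlapping intervals.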

How the results depend on the processing

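No regulator reversed direction: over 10 alternatives, 70 of 70 log2 ratios were above 0. The count of regulators at least 2-fold higher was 5 under most alternatives and 6 with TMM scaling, RLE scaling or a 1.5-fold limit (2.33% of all genes), where Nfkbib joined. With equal weight per cell the 5 were not the same: Nfkbib, at 1.00, was in and Nfkbiz, at 0.9955, was out. The median of the 7 moved from 1.34 to 1.61 with TMM scaling, 1.60 with RLE scaling, 1.51 after the trend over transcript length was removed and 1.17 with equal weight per cell. The widest range was that of Nfkbiz, 1.00 to 2.23, and Nfkbid ran from 0.28 to 0.55. The counts over all genes, 73 higher and 238 lower, became 138 and 69 with either scaling, 116 and 70 after the length correction and 187 and 1387 at 1.5-fold. Of 49 pairs of gene and cell type, 32 were at least 2-fold higher. The count was 31 with doubled gate limits, 34 with limits at 0.5 of their value and 39 with TMM scaling. It was 30 less the macrophage RNA estimated from C1q, an alternative chosen after seeing the data. All 49 were above 0 each time. Shares of all genes by type were not computed under these alternatives, so these counts have no background beside them. No paired analysis was possible because each group had 1 library. Mature neutrophil values rest on 1377913 and 2005207 UMIs in all, so Tnfaip3, with 48 and 39 UMIs, had overlapping intervals there.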

Other observations

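The 5 gates with fewer than 200 cells in a library, 295 THP and 245 vehicle cells in all, were left out of the comparisons. Of their 35 pairs of levels, 27 were higher with THP and 8 with vehicle. The intervals did not overlap in 7 pairs, all higher with THP, and each of the 8 lower ones rested on at most 19 UMIs per library. Shares over all genes were not computed in these gates, so whether these counts are particular to the regulators was not tested. The stromal gate, 83 THP and 72 vehicle cells led by the collagen and matrix genes Sparc, Col1a2 and Col1a1, held 4 of those 7 pairs, and its 7 ratios were above 0. The median summed stromal markers of its cells were 5528 CPM with THP and 13663 CPM with vehicle. The median UMIs were 20810 and 39385, and whether like cells were compared was not tested. This gate had the largest Nfkbie ratio of any gate with more than 10 UMIs of Nfkbie in each library. The levels were 66.1 CPM (55.5 to 78.1) against 12.2 CPM (8.57 to 16.8). This THP level was also above that of each of the 7 larger types, though its interval overlapped that of mature neutrophils, 45.0 CPM (34.5 to 57.7). The B-lineage gate, described below, had a THP level of Nfkbie that was no lower. Stromal Nfkbiz and Tnfaip3, 33.3 against 20.4 CPM and 20.7 against 14.2 CPM, were each under 2-fold, and Nfkbid, at 3.86 and 3.62 CPM, was under 10 CPM in both libraries.

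In the B-lineage gate, 80 THP and 59 vehicle cells, 3 of the 7 ratios were below 0 and no pair of intervals was separate. Nfkbia had 303 CPM (240.4 to 376) against 249 CPM (188 to 323) and Nfkbie 67.3 CPM (39.9 to 106) against 84.3 CPM (50.8 to 132). Nfkbid, at 14.9 against 35.5 CPM, and Nfkbiz, at 14.9 against 31.1 CPM, were the 2 pairs past 2-fold in the lower direction in any gate, from 4 and 8 and from 4 and 7 UMIs. The counting interval of the Nfkbia ratio, 0.856 to 1.74, lay below those of the 7 larger types, the lowest of which began at 2.73. Whether these cells differ from the rest in their response was not tested. Among the 45 THP and 37 vehicle T or NK cells, Tnfaip3 (26.0 against 48.4 CPM), Nfkbiz and Tnip1 had ratios below 0. So did Tnfaip3 in mast cells or basophils (17.4 against 19.7 CPM) and Nfkbib in dendritic cells (36.4 against 58.6 CPM), each with overlapping intervals.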
